A study of Rattus norvegicus with 18 samples.

Results

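Gene expression in the basolateral amygdala (BLA) was compared between rats that had ever been enriched and rats that never had. The ever enriched rats were 6 removed from enrichment into single housing (ER) and 6 kept in environmental enrichment (EE), 12 libraries in all, and the never enriched rats were 6 that were single-housed throughout (SH). The difference was the mean of ER and EE minus SH on a log2 scale, and 18172 of the 19113 genes in the table, those whose mean over the 18 libraries was above 1, were tested. All were adult male Sprague-Dawley rats with no genetic change and no drug, and each library was polyadenylated RNA from BLA micropunches of 1 rat. Enriched rats shared large cages with toys in groups during their active, dark phase and were housed singly by day. Enrichment and company therefore cannot be told apart, and the spread between cages is not covered by the tests. ER rats had weeks of enrichment before removal, and tissue was taken weeks after removal. A difference that outlasts removal would be present in ER as well as in EE, and the question was which differences were.

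The BLA evaluates threat and reward, and most of its neurons are glutamatergic projection cells held in check by local GABAergic interneurons. Enriched housing combines space, novelty, exercise and company, and in rodents it is known for its effects on dendrites, synapses, myelin and responses to stress.

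The reads recovered per library ranged from 17753797 to 23450276. Slc17a7, the vesicular glutamate transporter of cortical-type excitatory neurons, had a mean of 44146 normalized reads (reads divided by the size factor of the library, not corrected for gene length), and Ttr, which marks choroid plexus, had 6.39. The striatal markers Drd1 and Drd2 were present at means of 662 and 153, and their part in the results was not tested. SH 1 and SH 3 stood apart from the other 16 libraries. On the first principal component, which held 20.4% of the variance, SH 3 lay at -137 and SH 1 at -45.1, against -0.220 to 21.7 elsewhere, and these libraries had 16669 and 16908 genes above 0, against 17382 to 17846. Both are never enriched rats, so the leading results are given with them and without them, and "the pair" below means SH 1 and SH 3.

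No gene passed an adjusted p of 0.05 in limma with all libraries, which is 0% of the genes tested, and the smallest adjusted p was 0.361. At an unadjusted p under 0.05, 962 genes (5.29%) had higher values in ever enriched rats and 601 (3.31%) had lower values. The split of directions turned over with the test. On the recovered reads edgeR had 545 higher and 1017 lower genes, DESeq2 had 644 and 1023, and limma-voom with library weights had 525 and 907. Across all genes tested the median log2 fold change was 0.013, and -0.0014 without the pair.

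Aurkc had the smallest p of all genes. It encodes aurora kinase C, a kinase of the chromosomal passenger complex best known from meiosis. Lowest, median and highest values were 272, 323 and 349.8 normalized reads in the ER and EE libraries, against 369, 456 and 526 in the SH libraries, so every ever enriched library lay below every SH library. The log2 fold change was -0.48 ± 0.085 (SE, limma) with all libraries and -0.48 ± 0.084 without the pair. An exact permutation test of the 12 against the 6 libraries gave p = 5.39e-05, the smallest it can give. Adjusted over all genes, 0 genes passed in that test (smallest adjusted p = 0.367). The permutation p-values here and below are unadjusted and belong to genes picked by p from the same values, so they add no separate support. Adjusted over all genes, Aurkc passed in DESeq2 (adjusted p = 0.000641) and limma-voom (adjusted p = 0.0396) and did not pass in limma (adjusted p = 0.361) or edgeR (adjusted p = 0.198). It was the only gene that DESeq2 or limma-voom called with all libraries. Uncharacterized genes overlap Aurkc in RefSeq, and also Fgd3, Pla2g12a, Adgrl2, Cadps2, Esrrg, Kdsr, Popdc3 and Siah3, and whether reads were counted by strand is not stated in the sources, so the reads of these genes and their partners may not be separable.

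A single further gene, Fam71e1, had all 12 ever enriched libraries below all 6 SH libraries, which makes 2 genes or 0.011% of those tested, and 0% had them all above. Fam71e1 had 87.9, 106 and 118 normalized reads in ER and EE libraries, against 118, 126 and 142 in SH libraries. The nearest libraries were 117.74 in the ever enriched group and 118.28 in the SH group, so the groups only just parted. Its log2 fold change was -0.29 ± 0.10, and -0.23 without the pair.

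**Figure D1:**
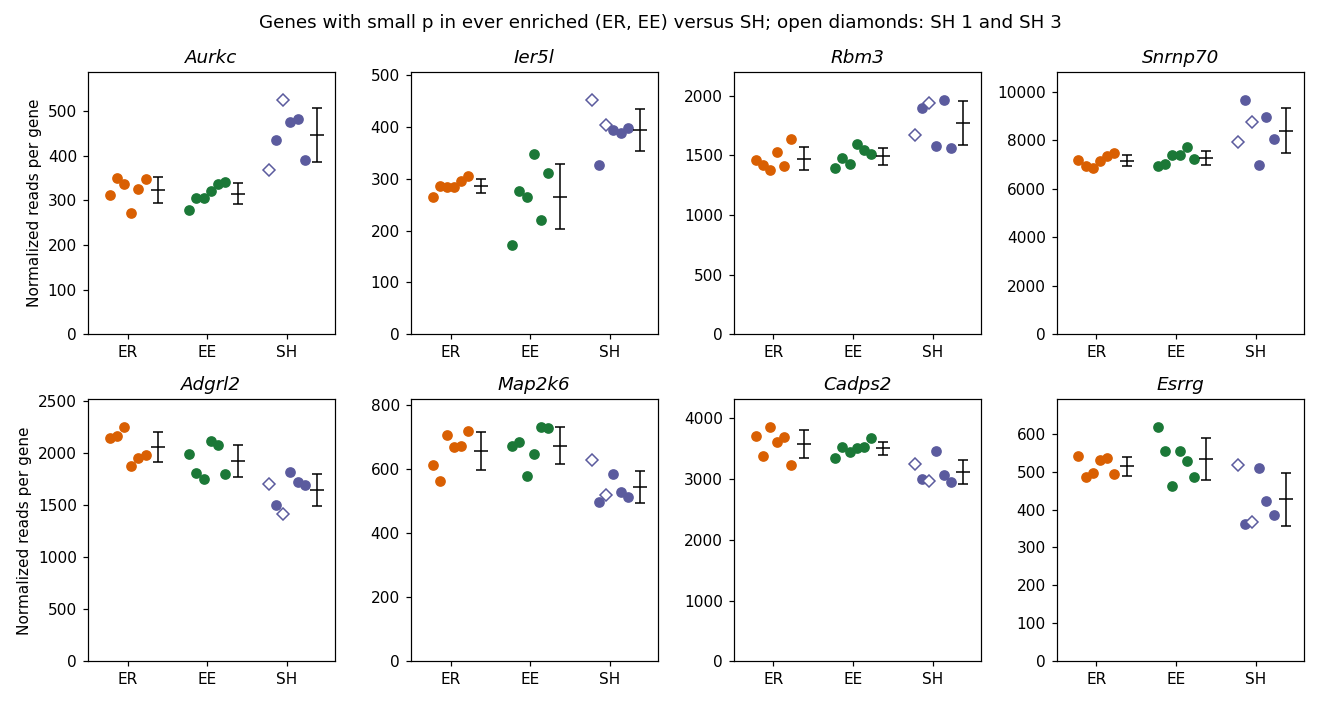
Normalized reads per gene (linear axis from 0) in each library of the ER, EE and SH groups for 8 genes with small p, with the group mean and SD in black and SH 1 and SH 3 as open diamonds. In Aurkc all 12 ER and EE points lie below all 6 SH points, while in the other panels some points of the groups overlap.

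The reference promoters of 3 genes are shown: Aurkc and Adgrl2 had the smallest p among lower and higher annotated genes averaging 10 reads or more, and Cadps2, also among the higher genes, holds an E-box. Each is 300 bases, from before to just after the RefSeq start site, in build GRCr8, read 5′ to 3′ on the gene's own strand. Capitals in Cadps2 mark CACGTG, the palindromic E-box letters.
Aurkc (chr1:75882844-75883143, minus strand): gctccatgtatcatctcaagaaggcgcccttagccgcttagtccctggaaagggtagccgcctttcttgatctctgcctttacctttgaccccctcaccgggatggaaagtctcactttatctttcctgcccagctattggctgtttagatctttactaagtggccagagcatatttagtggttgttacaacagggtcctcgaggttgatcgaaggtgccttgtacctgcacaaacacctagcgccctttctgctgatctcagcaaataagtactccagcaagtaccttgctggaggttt
Adgrl2 (chr2:240495250-240495549, minus strand): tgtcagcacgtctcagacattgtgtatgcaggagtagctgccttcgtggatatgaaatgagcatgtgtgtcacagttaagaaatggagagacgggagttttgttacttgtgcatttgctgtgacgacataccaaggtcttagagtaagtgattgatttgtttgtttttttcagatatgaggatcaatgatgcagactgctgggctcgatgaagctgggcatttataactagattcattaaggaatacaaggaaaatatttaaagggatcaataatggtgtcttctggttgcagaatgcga
Cadps2 (chr4:53274955-53275254, minus strand): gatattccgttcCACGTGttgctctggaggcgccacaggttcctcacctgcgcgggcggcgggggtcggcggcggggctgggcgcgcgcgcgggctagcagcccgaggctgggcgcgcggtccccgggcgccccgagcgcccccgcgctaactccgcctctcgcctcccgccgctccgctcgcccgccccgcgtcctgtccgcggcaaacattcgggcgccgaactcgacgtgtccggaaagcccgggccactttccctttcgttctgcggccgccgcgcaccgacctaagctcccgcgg
RefSeq promoters were matched for 21 of the 24 leading genes, the 12 higher and 12 lower genes with the smallest p among annotated genes averaging 10 reads or more. CACGTG lay in 3 of them (Pla2g12a, Minar1 and Cadps2), against 6.42% of 33469 rat promoters of the same length. The cyclic AMP response element letters TGACGTCA lay in 0 of 21, against 1.83%. Both motifs read the same on either strand, and a match is only a description of the letters.

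Among the other lower genes, Ier5l, a relative of the immediate early gene Ier5, had 173, 284 and 347 normalized reads in ER and EE libraries, against 326, 396 and 452 in SH libraries. Of the 12 ever enriched libraries, 11 lay below every SH library, and the log2 fold change was -0.52 ± 0.12 (exact permutation p = 0.000108) and -0.46 without the pair. Rbm3, a cold-induced RNA-binding protein, had 1378, 1467 and 1637 in ER and EE libraries, against 1561, 1785 and 1966 in SH libraries. Its fold change was -0.25 ± 0.061 (exact permutation p = 0.000485) and -0.23 without the pair. Snrnp70, part of the U1 spliceosomal complex, had 6844, 7226 and 7733 in ER and EE libraries, against 7007, 8413 and 9673 in SH libraries, a fold change of -0.21 ± 0.056 with all libraries and -0.21 without the pair. In Snrnp70 the lowest SH library lay within the ever enriched range, and only 3 of 12 ever enriched libraries were below it.

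Smarcd3, a subunit of the SWI/SNF chromatin remodeller, had 1207, 1494 and 1757 in ER and EE libraries, against 1655, 1779 and 2305 in SH libraries. SH 3 was the highest library in Smarcd3, and the log2 fold change was -0.32 ± 0.074 with all libraries and -0.22 without the pair. Fgd3, an exchange factor for Cdc42, had 405, 440.0 and 522 in ER and EE libraries, against 482, 548 and 601 in SH libraries (-0.29 ± 0.071, and -0.28 without the pair). Pla2g12a, a secreted phospholipase A2, had 249, 326 and 414 in ER and EE libraries, against 333, 463 and 593 in SH libraries (-0.51 ± 0.13, and -0.34 without the pair). Aldh1b1, a mitochondrial aldehyde dehydrogenase, had 289, 375 and 419.9 in ER and EE libraries, against 416, 479 and 504 in SH libraries (-0.31 ± 0.078, and -0.26). In Smarcd3 and Fgd3 11 of 12 ever enriched libraries lay below every SH library, in Aldh1b1 10 and in Pla2g12a 7.

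Naa80, which acetylates the N terminus of actin, had a log2 fold change of -0.34 ± 0.086 and -0.27 without the pair, and Wdr74, which acts in ribosome assembly, had -0.35 ± 0.088 and -0.21. Naa80 overlaps Hyal1 and Hyal3 in RefSeq, Smarcd3 overlaps Chpf2 and Wdr74 overlaps Tex54, and these reads may not be separable. Mdfic had 49.1, 76.2 and 108 in ER and EE libraries, against 80.4, 124 and 164 in SH libraries (-0.66 ± 0.18, and -0.62 without the pair). Ccdc173, a microtubule protein of cilia, had 7.72, 13.9 and 36.9 in ER and EE libraries, against 24, 29.8 and 38 in SH libraries (-1.07 ± 0.28, and -1.17). Its highest ever enriched value came from ER 3 alone, and the other 11 lay below every SH library.

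Among genes higher in ever enriched rats, Adgrl2 (latrophilin 2), an adhesion receptor of synapses, had 1747, 1987 and 2247 normalized reads in ER and EE libraries, against 1411, 1701 and 1815 in SH libraries. Of the 12 ever enriched libraries, 9 lay above every SH library, and the log2 fold change was 0.28 ± 0.063 (exact permutation p = 0.000323) and 0.24 without the pair. Map2k6, a kinase that activates p38, had 563, 672 and 730.2 in ER and EE libraries, against 496, 524 and 628 in SH libraries. Its fold change was 0.29 ± 0.072 (exact permutation p = 0.000646) and 0.33 without the pair. Cadps2, which primes dense-core vesicles for release, had 3225, 3526 and 3852 in ER and EE libraries, against 2954, 3030.3 and 3463 in SH libraries (0.19 ± 0.048, and 0.18 without the pair). Cadps2 overlaps Rnf133 and Rnf148 in RefSeq, and these reads may not be separable. Esrrg, an orphan nuclear receptor of oxidative metabolism, had 461, 529.6 and 617 in ER and EE libraries, against 362, 404 and 518 in SH libraries (0.30 ± 0.086, and 0.33).

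Other higher genes had smaller differences without the pair. Neto2, an auxiliary subunit of kainate receptors, had 483, 631 and 769.7 in ER and EE libraries, against 287, 486 and 585 in SH libraries, with SH 3 the lowest (0.44 ± 0.13, and 0.26 without the pair). Lonrf1, a RING finger protein, had 532, 656 and 806 in ER and EE libraries, against 333, 538 and 630.1 in SH libraries (0.47 ± 0.13, and 0.23). In Lonrf1, SH 1 at 333 and SH 3 at 358 lay below the other SH libraries at 530.4 to 630.1. Kdsr, an enzyme of sphingolipid synthesis, gave 0.32 ± 0.091 and 0.24 without the pair, Osbpl3, an oxysterol-binding protein, 0.42 ± 0.12 and 0.27, and Tubd1, delta tubulin, 0.46 ± 0.13 and 0.31.

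The 3 largest fold changes among the 12 leading higher genes were at low values, near the pseudocount of 1 on which they depend. Minar1 had 7.82, 16.1 and 28.7 normalized reads in ER and EE libraries, against 0, 5.13 and 11.8 in SH libraries (1.65 ± 0.41, and 1.03 without the pair). Popdc3, a cyclic AMP-binding membrane protein, had 5.70, 13 and 22.6 in ER and EE libraries, against 0, 4.28 and 14.6 in SH libraries (1.66 ± 0.46, and 1.56). Siah3 had 10.2, 21.1 and 33.8 in ER and EE libraries, against 0, 7.24 and 23.9 in SH libraries (1.67 ± 0.47, and 0.82).

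Whether these differences were present after removal was read from both arms of the contrast. ER minus SH and EE minus SH share the 6 SH libraries, so their values are given side by side. The pair is among those 6, and a shift in SH moves both arms alike. Among the 962 higher genes the median log2 fold change was 0.37 in ER and 0.33 in EE, and among the 601 lower genes it was -0.29 in ER and -0.27 in EE. All 1563 genes had both arms on the same side of SH, and choosing them by the mean of the arms favours this. ER minus EE was below an unadjusted p of 0.05 in 36 of the 1563 genes, or 2.3%, against 3.66% of all genes tested. ER lay nearer to SH than EE did in 19 of those 36 and farther in 17. Over all 1563 genes ER was the nearer arm in 660 and the farther in 903. No gene passed an adjusted p of 0.05 in ER minus EE (limma, smallest adjusted p = 0.624), which does not show that the arms are equal. These medians and counts are not given without the pair. In single genes without it, Aurkc had -0.46 in ER and -0.50 in EE, and Adgrl2 0.29 and 0.19. Neto2 had 0.19 in ER and 0.33 in EE, Osbpl3 0.17 and 0.38, and Tubd1 0.48 and 0.14. The arms of the other leading genes are given only with all libraries.

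**Figure D2:**
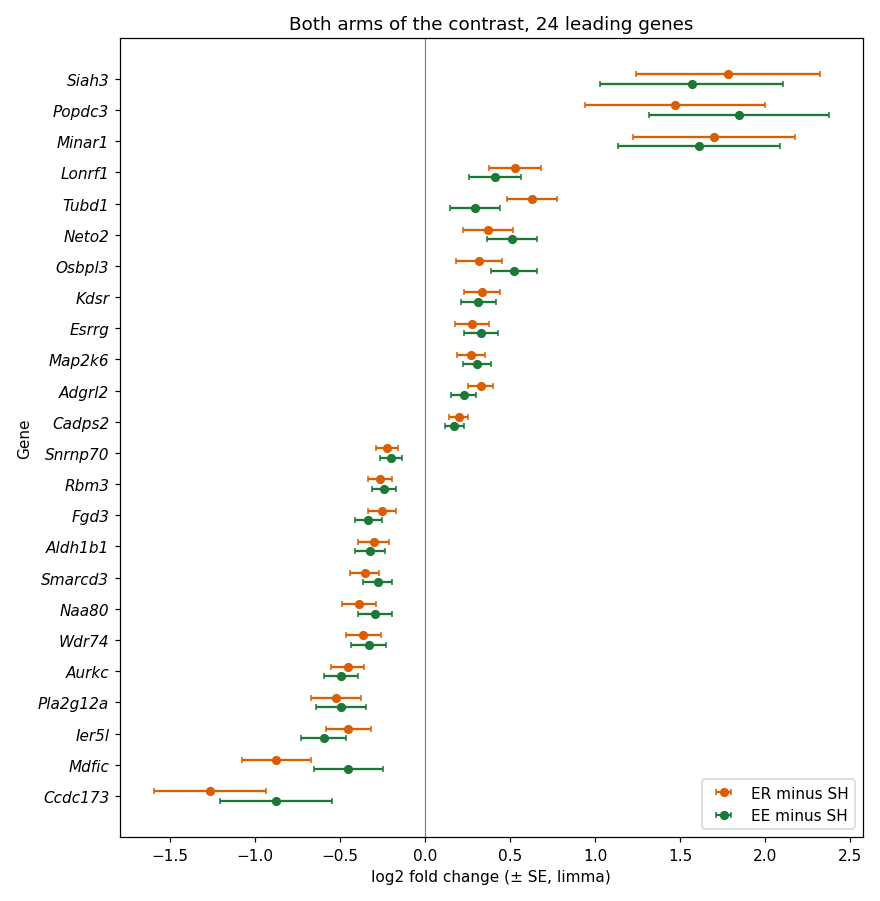
Log2 fold change with its limma standard error for ER minus SH (orange) and EE minus SH (green), both against the same SH libraries, for the 24 leading genes. Every gene has both arms on the same side of 0, which the choice of genes favours, and the gap between arms is widest relative to its error in Tubd1 and Mdfic.

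The interval on ER minus EE gives how far the arms could differ in one gene. In Aurkc the arms were -0.46 ± 0.10 in ER and -0.49 ± 0.10 in EE, and their difference of 0.039 had a 95% interval of -0.17 to 0.24. In Ier5l they were -0.45 ± 0.13 in ER and -0.60 ± 0.13 in EE, a difference of 0.14 (-0.13 to 0.42). In Adgrl2 they were 0.33 ± 0.073 in ER and 0.23 ± 0.073 in EE, a difference of 0.10 (-0.053 to 0.25). These 3 intervals all held 0. Map2k6 (-0.21 to 0.14), Cadps2 (-0.089 to 0.14), Rbm3 (-0.17 to 0.12) and Snrnp70 (-0.16 to 0.11) likewise had intervals on both sides of 0. Mdfic had -0.87 ± 0.20 in ER and -0.45 ± 0.20 in EE, a difference of -0.42 (-0.85 to 0.00011), so the larger difference from SH was in ER, with an interval that just reached 0. Tubd1, with 0.63 ± 0.15 in ER and 0.29 ± 0.15 in EE, was the only leading gene whose interval lay on one side of 0 (0.34, 0.030 to 0.64), and its values were highest after removal. This is 1 of the 24 leading genes, against 3.66% of all genes tested, and the adjusted p of ER minus EE in Tubd1 was 0.9997 (limma).

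The comparison was repeated without the pair, which left 12 ever enriched libraries against 4. Again 0% of genes passed an adjusted p of 0.05 in limma (smallest adjusted p = 0.200), while 615 genes (3.38%) had higher and 734 (4.04%) lower values at an unadjusted p under 0.05. In the same direction in both fits were 178 higher and 178 lower genes, 22.8% of the 1563 genes with all libraries and 26.4% of the 1349 genes without the pair. Of the 615 higher genes, 174 had been negative with all libraries, and of the 734 lower genes, 198 had been positive. Of the 18172 genes tested, 22 had all 12 ever enriched libraries above the 4 SH libraries, and 25 had them all below. Groups part more easily with fewer SH libraries, so these counts are not comparable with the 0 and 2 genes found with all 6. On recovered reads, an alternative chosen after seeing the data, DESeq2 called 14 genes without the pair and edgeR called 0 (smallest adjusted p = 0.132). DESeq2 adjusted only over the genes that its default filter on low means kept, fewer than the 18172 of limma and edgeR. The 14 and the 0 are therefore not on equal terms.

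Mzf1, a zinc finger transcription factor, had 958, 1004 and 1147 normalized reads in ER and EE libraries, against 916, 1205 and 1348 in SH libraries, and its log2 fold change was -0.16 with all libraries and -0.31 ± 0.055 without the pair. SH 1 and SH 3, at 916 and 941, were below all 12 ever enriched libraries, and the other SH libraries, at 1154, 1256, 1297 and 1348, were above them all. Cacna1h, the Cav3.2 T-type calcium channel, had 1363, 1728 and 2105 in ER and EE libraries, against 1277, 2069 and 2410.2 in SH libraries, with fold changes of -0.12 and -0.36 ± 0.070 without the pair. Col4a5, a basement membrane collagen chain, had 220.0, 250.4 and 312 in ER and EE libraries, against 132, 316 and 365 in SH libraries, and its fold change was 0.044 with all libraries and -0.38 ± 0.085 without the pair. Prex2, a Rac exchange factor, had 1551, 1734 and 1986 in ER and EE libraries, against 509, 2006 and 2246 in SH libraries (0.18, and -0.26 ± 0.060 without the pair). In Cacna1h, Col4a5 and Prex2 as well, both libraries of the pair lay below every ever enriched library, and the other SH libraries lay high.

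Further lower genes without the pair were Drc1, a nexin-dynein regulator of cilia (-0.30 with all libraries and -0.39 without the pair), and Sp9, a transcription factor of GABAergic neurons (-0.31 and -0.70). Leaving out SH 6 alone gave -0.20 in Sp9. Rfk, riboflavin kinase, had 1517, 1629 and 1797 in ER and EE libraries, against 1352, 1451 and 2162 in SH libraries, with fold changes of 0.030 and 0.22 ± 0.050 without the pair. Here SH 1 and SH 3, at 2162 and 2068, were above all 12 ever enriched libraries, and the other SH libraries, at 1352, 1403, 1425 and 1478, below them all. Gnpat, an enzyme of plasmalogen synthesis, had the same order of libraries (0.031 and 0.19 ± 0.046). Slc35g2, a solute carrier, had 336, 392 and 487 in ER and EE libraries, against 278, 319 and 412 in SH libraries (0.25 and 0.39 ± 0.089). Dusp10, a phosphatase that inactivates p38 and JNK, gave 0.37 and 0.51 ± 0.13, and Lpl, lipoprotein lipase, 0.36 and 0.56 ± 0.15. Leaving out SH 6 alone brought Lpl to 0.23. Among the genes named here, DESeq2 without the pair called Aurkc, Mzf1, Cacna1h, Drc1, Col4a5, Prex2, Rfk, Slc35g2 and Map2k6. Of these, Prex2, Rfk, Slc35g2 and Map2k6 had an adjusted p of 0.0433 (DESeq2), near the threshold and adjusted over fewer genes than in limma.

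**Figure D3:**
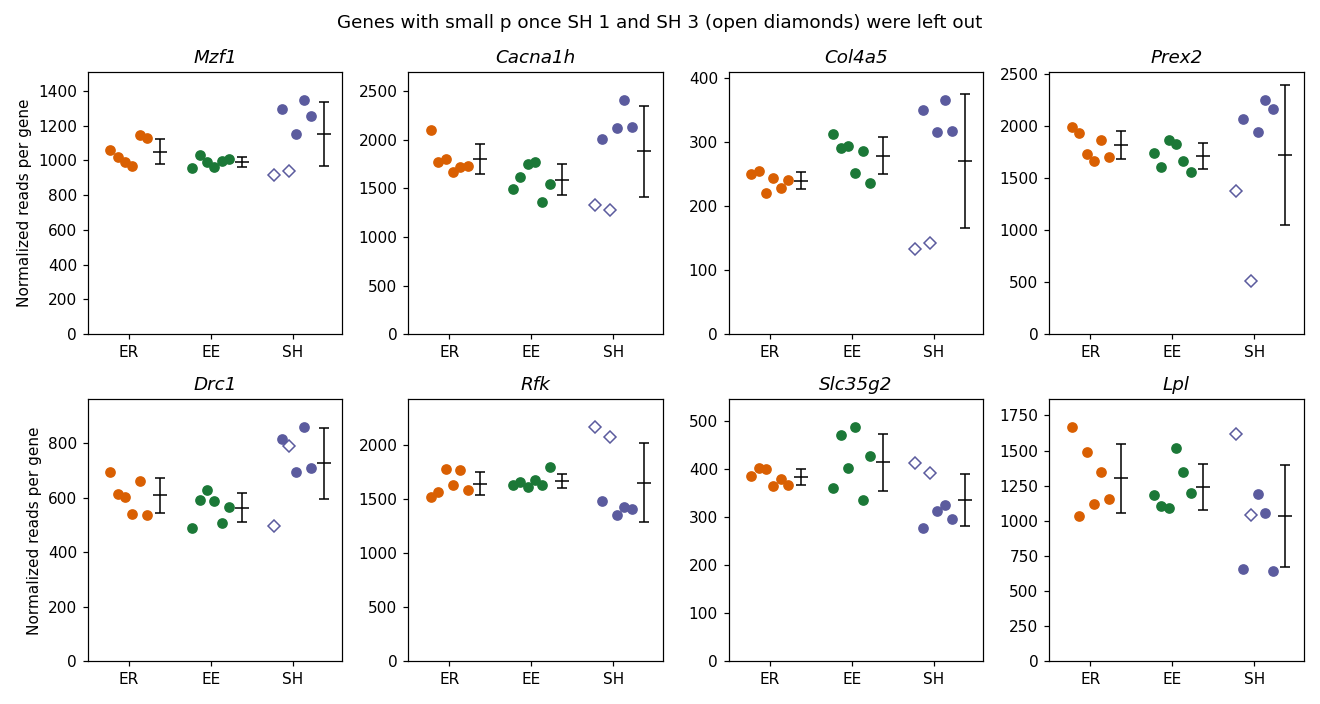
Normalized reads per gene (linear axis from 0) in each ER, EE and SH library, with group mean and SD in black, for 8 genes with small p once SH 1 and SH 3 (open diamonds) were left out. In Mzf1, Cacna1h, Col4a5 and Prex2 the open diamonds lie below all ER and EE points while the other 4 SH points lie high, and in Rfk they lie above all of them.

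Lists of genes grouped by function or cell type are described by counts and medians, to be read against the shares and medians of all genes given above. Synapse and excitability genes had positive medians with all libraries. The 46 tested postsynaptic scaffold and adhesion genes had a median of 0.14, with 41 positive and 8 higher at an unadjusted p under 0.05, and 0.023 without the pair, with 29 positive and 2 higher. Nlgn3, a neuroligin, had 3505, 3749 and 4296 in ER and EE libraries, against 2601, 3416 and 3899 in SH libraries (0.21 ± 0.075, and 0.070 without the pair). Adgrl3 (latrophilin 3) had 0.39 ± 0.16 and 0.062, with SH 3 at 863. The 45 vesicle release genes had 0.11, with 40 positive, and 0.012 without the pair, with 27 positive. In that list Cadps, the relative of Cadps2, gave 0.31 ± 0.13 and 0.10.

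The 55 voltage-gated channel genes had a median of 0.11, and -0.062 without the pair, and 60 receptors for peptides and monoamines 0.10 and -0.066, so both medians changed sign. Scn1a, a sodium channel subunit, gave 0.21 ± 0.091 and 0.064 without the pair, and Scn3b 0.15 ± 0.065 and 0.078. Htr5a, a serotonin receptor, had 152, 188 and 228 in ER and EE libraries, against 36.5, 143 and 179 in SH libraries, with SH 3 alone at 36.5 (0.64 ± 0.23, and 0.25 without the pair). Htr1a, the autoreceptor of serotonin neurons that is also found on their targets, had 64.8, 114 and 159 in ER and EE libraries, against 7.52, 66.9 and 123 in SH libraries (1.07 ± 0.41, and 0.30). Sstr1, a somatostatin receptor, had 1074, 1403 and 1806 in ER and EE libraries, against 1097, 1205 and 1314 in SH libraries, and moved little without the pair (0.23 ± 0.083, and 0.20). The 23 GABA receptor genes had 0.082 and 0.00076 without the pair, and the 36 glutamate receptor genes 0.093 and 0.0094. Gabra2 gave 0.43 ± 0.18 and 0.10, Gabra3 0.31 ± 0.13 and 0.057, and Gabbr2 0.22 ± 0.088 and 0.084.

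Protein synthesis and respiration genes had negative medians with all libraries and positive ones without the pair. The 84 tested cytosolic ribosomal protein genes had -0.20, with 7 positive and 13 lower at an unadjusted p under 0.05, and 0.057 without the pair, with 60 positive and 0 lower. Their summed value was 266804 in SH 1 and 296812 in SH 3, against 152346 to 183177 in the other SH libraries, and it lay between 153561 and 197735 in ER and EE libraries. Leaving out SH 1 alone gave a median of -0.12 and SH 3 alone -0.088, so it stayed negative unless both were left out. Reads of ribosomal pseudogenes may enter these values. The 84 nuclear respiratory chain genes had -0.16, with 6 positive and 2 higher, and 0.10 without the pair, with 77 positive and 23 higher. The mitochondrial ribosomal proteins went with them (-0.15 and 0.048), as did the proteasome (-0.10 and 0.068).

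Cox4i1, a subunit of cytochrome oxidase, had 9146, 10869.7 and 11871 in ER and EE libraries, against 9714, 11541 and 17849 in SH libraries, with SH 1 at 15116 and SH 3 at 17849 (-0.23 ± 0.10, and -0.027 without the pair). Uqcrc2, a core protein of complex III, lay the other way, with 4242, 4481 and 4751 in ER and EE libraries, against 3724, 4164 and 4289 in SH libraries. Of the 12 ever enriched libraries 10 lay above every SH library, and its fold change was 0.14 ± 0.045, and 0.13 without the pair. Chaperone genes had 0.032 with 6 of 45 higher, and 0.092 without the pair with 40 positive and 14 higher. Dnaja1, a cochaperone of Hsp70, gave 0.13 ± 0.048 and 0.13, and Hyou1, a chaperone of the endoplasmic reticulum, 0.11 ± 0.041 and 0.086.

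In bulk tissue, fewer cells of a type and less RNA per cell cannot be told apart, which touches the lists of cell types. Genes of myelinating oligodendrocytes had a median of 0.16 over 22 genes, with 20 positive, and 0.18 without the pair, with 21 positive. The list median was 0.0043 in ER and 0.33 in EE, and 5 members were lower in ER than in EE at an unadjusted p under 0.05. Ugt8, which makes the myelin lipid galactosylceramide, had 1286, 1361 and 1864 in ER libraries, 1315, 1862 and 2632 in EE libraries and 1019.9, 1325 and 1776 in SH libraries, and ER minus EE was -0.36 (-0.70 to -0.019). Enpp2 (autotaxin) had log2 fold changes from SH of 0.14 in ER and 0.54 in EE, and ER minus EE was -0.39 (-0.75 to -0.034). Olig2, the transcription factor of the lineage, had 438, 485 and 561 in ER libraries, 481, 568 and 905 in EE libraries and 336, 436 and 518 in SH libraries, with ER minus EE of -0.37 (-0.67 to -0.068). In these 3 genes the interval lay below 0 before adjustment over all genes, and the difference from SH was the smaller in ER. EE 1 and EE 5 were the highest EE libraries in all 3, at 857 and 905 in Olig2, 2632 and 2510 in Ugt8, and 2323 and 1991 in Enpp2. The summed value of the myelinating list overlapped widely, with 94526 to 142315 in ER, 92197 to 217761 in EE and 97209 to 157132 in SH libraries. The 14 genes of precursors and new oligodendrocytes had 0.11, with 0.045 in ER and 0.19 in EE, and 0.070 without the pair, with -0.042 in ER and 0.20 in EE.

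Astrocyte genes had a median of -0.067 over 22 genes, -0.12 in ER and 0.032 in EE, and -0.041 without the pair. Aldh1l1, a folate enzyme used as an astrocyte marker, had 253, 287 and 313 in ER libraries, 296, 335 and 429.6 in EE libraries and 346, 385 and 418 in SH libraries, with ER minus EE of -0.30 (-0.51 to -0.085), so the ER arm was the farther from SH. Sox9 gave -0.21 ± 0.092 and -0.073 without the pair, and Gjb6, a gap junction protein, -0.23 ± 0.10 and -0.12. Microglial genes had 0.011 over 25 genes, with 13 positive, -0.075 in ER and 0.12 in EE. Without the pair the microglial median was 0.091, with 22 positive, -0.032 in ER and 0.19 in EE. Tmem119 had 205, 271 and 522 in ER and EE libraries, against 281, 431 and 467 in SH libraries (-0.46 ± 0.16, and -0.38 without the pair), while the fractalkine receptor Cx3cr1 had 0.38 ± 0.19 and 0.091, so 2 defining microglial markers had opposite signs. Complement and antigen presentation genes had 0.0039 over 31 genes, with 16 positive, 0.033 in ER and 0.12 in EE. Without the pair the median was 0.11, with 21 positive, 0.041 in ER and 0.27 in EE, and the summed value of these genes was 15802 in SH 1 and 15450.1 in SH 3, against 10481 to 12502 in the other SH libraries. Psmb9, a subunit of the immunoproteasome, had 0.59 ± 0.20, and 0.66 without the pair. Interferon response genes had -0.034 over 27 genes, and -0.039 without the pair.

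Excitatory neuron genes had a median of 0.067 over 21 genes and inhibitory neuron genes 0.10 over 20, and -0.0080 and -0.0027 without the pair. The median was the higher in ER for excitatory genes and in EE for inhibitory genes, a difference that was not tested over the lists. Excitatory genes had 0.16 in ER and 0.0080 in EE, and 0.13 and -0.10 without the pair. Inhibitory genes had 0.012 in ER and 0.16 in EE, and -0.072 and 0.12 without the pair. Lamp5, which marks a class of interneurons, had 1287, 1482 and 1669.7 in ER and EE libraries, against 1502, 1707 and 2045 in SH libraries (-0.24 ± 0.071, and -0.19 without the pair). Lhx6, a transcription factor of interneurons from the medial ganglionic eminence, had 58, 68.3 and 91 in ER and EE libraries, against 10.7, 50.5 and 65 in SH libraries, with SH 3 at 10.7 (0.80 ± 0.27, and 0.41). The 20 genes of striatal and central amygdala neurons had -0.15 and -0.17 without the pair, when 6 were lower at an unadjusted p under 0.05. Their summed value ranged from 17372 to 23684 in ER libraries, 19146 to 24361 in EE libraries and 17984 to 28932 in SH libraries. Foxp2 had 142, 325 and 592 in ER and EE libraries, against 243, 451 and 1417 in SH libraries (-0.68 ± 0.32, and -1.09 without the pair), and -0.40 when SH 2, its highest library, was the only one left out. Tissue from neighbouring nuclei was not tested as a part of any result, Sp9 included.

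The 30 collagen and laminin genes had a median of 0.10 with 22 positive, and -0.15 without the pair with 7 positive and 8 lower at an unadjusted p under 0.05. Lama4, a laminin chain of vessels, gave 0.28 ± 0.13 and 0.026, while Col15a1 had 6.70, 16.5 and 32.9 in ER and EE libraries, against 22.6, 28.7 and 39 in SH libraries (-0.85 ± 0.32, and -0.97). The 25 perineuronal net and hyaluronan genes had 0.032 and -0.067 without the pair. Itih3, a heavy chain that binds hyaluronan, had 5303, 6568 and 9371 in ER and EE libraries, against 6643, 8889.8 and 10257 in SH libraries, and was lower in both fits (-0.36 ± 0.13 and -0.34). Tnr, tenascin-R of the nets, gave 0.51 ± 0.27 and -0.0079, with SH 3 at 292 against 1276, 1731, 1770.0 and 1770.2 in the SH libraries outside the pair. Chsy3, which builds chondroitin chains, gave 0.39 ± 0.17 and 0.37, and among proteases and inhibitors Adam9 gave 0.24 ± 0.094 and 0.077 and Serpini1 (neuroserpin) 0.14 ± 0.061 and 0.12.

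**Figure D4:**
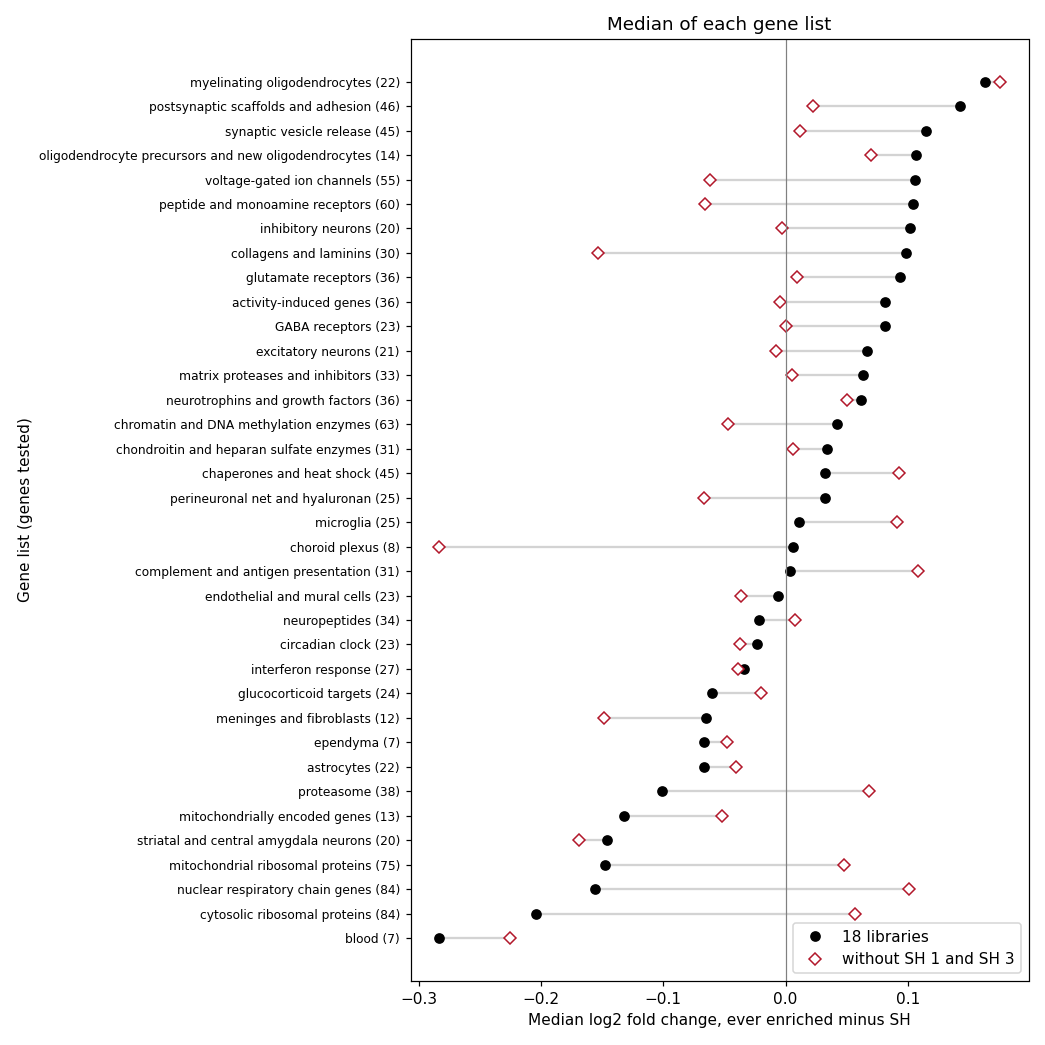
Median log2 fold change, ever enriched minus SH, of each of 36 gene lists, with all 18 libraries (black) and without SH 1 and SH 3 (open diamonds), and the number of genes tested in parentheses. The ribosomal, respiratory chain and proteasome lists lie below 0 with all libraries and above 0 without the pair, the collagen and laminin list the other way, and the myelinating oligodendrocyte list lies above 0 in both.

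Activity-induced genes had a median of 0.082 over 36 genes, and -0.0043 without the pair. Junb, an AP-1 factor, had 543, 674 and 804 in ER and EE libraries, against 609, 792 and 939 in SH libraries (-0.24 ± 0.11, and -0.22 without the pair), while Homer1 gave 0.56 ± 0.24 and 0.13. Among 23 clock genes the median was -0.024, and -0.037 without the pair, and Dbp, a transcription factor driven by the clock, had 1681, 2092 and 2549.7 in ER and EE libraries, against 2241, 2408 and 3038 in SH libraries (-0.22 ± 0.082, and -0.17). Chromatin and DNA methylation enzymes had 0.042 over 63 genes with 0 higher and 4 lower, and -0.047 without the pair with 7 lower. Hdac3, a histone deacetylase, gave -0.18 ± 0.060 and -0.076, Hdac10 -0.28 ± 0.10 and -0.28, and Kmt2e -0.14 ± 0.057 and -0.13. Glucocorticoid target genes had -0.060 over 24 genes, and -0.020 without the pair, with Nfkbia, the inhibitor of NF-kB, at -0.26 ± 0.12 and -0.083. The neuropeptide list, which also held the cerebellin Cbln2 (0.29 ± 0.11 and 0.29), had -0.022 over 34 genes, and 0.0079 without the pair. Growth factor genes had 0.062 over 36 genes with 0 below an unadjusted p of 0.05, and 0.050 without the pair with 2 higher and 1 lower. Blood genes had -0.28 over 7 genes with 1 positive, and the 13 mitochondrially encoded genes -0.13, and -0.22 and -0.052 without the pair.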

How the data were processed

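BLA polyadenylated RNA from 18 rats was sequenced, 1 library per rat. The authors aligned reads with HISAT2, counted them per Ensembl gene, scaled each library with DESeq2 and deposited the resulting signal, which is not corrected for gene length. The sources state no versions, genome build, annotation, counting tool or strandedness. In each library 100% of values were whole multiples of 1 step (within 0.01 reads), and the reads recovered this way, 17753797 to 23450276 per library, entered count tests. Samples were grouped by their labels, and 0 sample columns were unused.

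Genes with a mean above 1 were taken as log2(value + 1) and fitted in R 4.3.3 with limma 3.58.1 (3 groups, intensity trend), with Benjamini-Hochberg adjustment over 18172 genes and a threshold of 0.05. Fold changes at low values depend on the pseudocount. Alternatives were edgeR 4.0.16, DESeq2 1.42.0, limma-voom with quality weights, other scalings, pseudocounts and filters, fewer libraries, a replicate block and an exact permutation test. DESeq2 adjusted over the genes that its default filter on low means kept. The fit was also run on simulated counts drawn independently for each gene. They held no library-wide shift such as that of SH 1 and SH 3, so that run does not cover it. The comparison, genes and lists were chosen with earlier results of these data known. Tissue markers aside, named genes were annotated, had a mean of at least 10 and were taken by rank of p with all libraries or without SH 1 and SH 3, by non-overlap of the groups, or as up to 3 members of a list. A gene that this rule would name is not reported here. Genes were matched to RefSeq (GRCr8) by name for overlaps and promoters.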

Additional observations from a re-analysis of the deposited data

Results flagged for a closer look

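In each group of 6 libraries, the highest or lowest value was compared with the others by Dixon's test. Of the 264 groups examined, 9 stood out, and chance flags about 1 in 20 groups. Of these 9, 2 were in SH 3: Dbp, at 3040 against 2240 to 2490 in the other SH libraries, and Htr5a, at 36.5 against 131 to 179. Fgd3 was 522 in EE 6, against 405 to 438 in the other EE libraries. Ccdc173 was 36.9 in ER 3, against 7.72 to 13.3 in the other ER libraries, which is the ever enriched library that overlapped SH. Cacna1h was 2100 in ER 1, against 1670 to 1800 in the other ER libraries. Rfk was 1800 in EE 6, against 1610 to 1670 in the other EE libraries, Adgrl3 was 1880 in EE 5, against 2320 to 2510, and Hdac10 was 396 in EE 2, against 458 to 491. Hyou1 was 4460 in SH 4, against 3930 to 4130 in the other SH libraries.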

How the results depend on the processing

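Genes at an adjusted p under 0.05 numbered 0 in limma and 1 in DESeq2, 1 in limma-voom and 14 in DESeq2 without SH 1 and SH 3. Those 14 were adjusted over fewer genes than in limma. Higher genes at an unadjusted p under 0.05 were 962 in the limma model of all libraries, 615 without SH 1 and SH 3, 641 with array weights, 545 in edgeR, 525 in limma-voom, and, without the pair, 535 in edgeR and 619 in DESeq2. Lower genes were 601 in limma, 1017 in edgeR, 1023 in DESeq2 and 907 in limma-voom. Leaving out 1 library gave 430 (without SH 3) to 1644 (without SH 4) higher genes and 404 (without SH 3) to 995 (without SH 4) lower genes, and 0 at an adjusted p under 0.05 in every case. Genes with no overlap of the groups were 0 to 10 above and 2 to 9 below, the most without SH 4, and 22 above and 25 below without SH 1 and SH 3. Groups part more easily when libraries are left out, so these counts are not comparable with those of all libraries.

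Replicate numbers did not pair the libraries (18 same-number pairs, r = -0.083 to 0.13, 1 over 0.1); a replicate block gave 900 higher, 528 lower and 0 adjusted genes, and without the pair 680, 808 and 0. Of 3168 gene values under alternatives, 30 reversed, in 6 genes (the cause was not tested), and 3129 kept direction and side of the threshold. No gene passed the threshold in limma with all libraries, so keeping its side means remaining uncalled, and a fold change that shrank greatly still counts as kept. Col4a5 reversed to -0.38 without the pair, -0.29 with array weights, -0.41 with the block and without the pair, -0.070 in edgeR, -0.069 in DESeq2, -0.30 in voom and, without the pair, -0.39 in edgeR and -0.38 in DESeq2, over -0.14 to 0.15 with 1 library left out. Prex2 was -0.26 without the pair, -0.20 with array weights, -0.29 with the block and without the pair, -0.21 in voom and -0.26 in edgeR and DESeq2 without it, over -0.14 to 0.29. Tnr, 0.51 with all libraries, was -0.0079 without the pair, -0.059 with the block and without the pair, -0.0073 in edgeR and -0.0045 in DESeq2 without it. Rfk was -0.0023 in edgeR and -0.0039 in DESeq2, over -0.022 to 0.11, and Gnpat ranged over -0.012 to 0.11. Cox4i1 was 0.022 with the block and without the pair. Of 180 list medians under alternatives, 4 moved by more than the spread between replicates, those of both ribosomal lists, the respiratory chain and the proteasome without the pair. That spread includes SH 1 and SH 3, so some medians that changed sign without the pair did not count as moved. Among them were collagens and laminins (0.098 to -0.15), voltage-gated channels (0.11 to -0.062) and peptide and monoamine receptors (0.10 to -0.066). The effect of depth on genes with low values was not tested.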
